A study of Sus scrofa with 30 samples.

Results

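The small RNAs described here are miR-320 and miR-484, 2 miRNAs whose precursors do not need DROSHA. Members were the sequences of the annotated list of the study whose name has the root mir-320 or mir-484. Of the list, 9 sequences carried the root mir-320 and 0 the root mir-484, beside 864 other annotated sequences, so all values below are of miR-320. A further 17 sequences of the list are named only by an Ensembl gene that the name table at hand does not hold, and these were not matched to a root. Reads of miR-484 without its name were not looked for, as no file at hand holds its sequence.

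Most miRNAs are cut out of long primary transcripts by DROSHA and its partner DGCR8 in the nucleus, exported by exportin 5 and cut again by DICER1 in the cytoplasm. The hairpins of miR-320 and miR-484 instead begin at the start of transcription itself, carry the cap of the transcript at their 5' end, leave the nucleus through exportin 1 and meet only DICER1. For miR-320 the 3' arm is the one loaded into Argonaute proteins, and DICER1 sets its 5' end. That end fixes the seed, bases 2 to 8, through which a miRNA finds its targets. In the RefSeq gene table of the pig the gene MIR320 overlaps POLR3D, a subunit gene of RNA polymerase III, and lies between PHYHIP and PIWIL2. No gene named MIR484 was found there.

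Endometrium was collected from Hampshire x Duroc gilts of 7 to 8 months from 1 herd, either pregnant (P) or in the estrous cycle (C), on day (D) 12, 16 or 20, and each of the 30 libraries is from 1 animal. The groups were PD12 (n = 5), PD16 (n = 5), PD20 (n = 6), CD12 (n = 4), CD16 (n = 5) and CD20 (n = 5). Insemination took place 12 and 24 hours after the third estrus was detected. Up to D16 conceptuses were flushed out of the horns. On D20 of pregnancy endometrium was taken at the implantation sites, once embryos and trophoblast had been removed. The D20 pregnant samples thus also differ in how the tissue was freed of conceptus and in the site sampled. For the other groups the study names no such site. A library held 2029729 to 6402731 reads (median 3111079).

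The 9 sequences are shown because they differ only at their ends. Each was named here by the bases lost (DEL) or added (ADD) against the canonical form. The capitals mark the seed.

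3' DEL 1: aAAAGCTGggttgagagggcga
canonical: aAAAGCTGggttgagagggcgaa
5' DEL 1 and 3' DEL 1: aAAGCTGGgttgagagggcga
3' ADD 1: aAAAGCTGggttgagagggcgaaa
3' DEL 2: aAAAGCTGggttgagagggcg
5' ADD 1 and 3' DEL 1: gAAAAGCTgggttgagagggcga
5' DEL 1: aAAGCTGGgttgagagggcgaa
5' DEL 1 and 3' ADD 1: aAAGCTGGgttgagagggcgaaa
3' ADD 2: aAAAGCTGggttgagagggcgaaaa

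These forms hold 3 seeds. The canonical seed AAAGCTG was shared by 5 forms, the 3 forms without the first base had the seed AAGCTGG, and the form with an added G had AAAAGCT. All 9 were read in each of the 30 libraries, though the rarest with as little as 1 read.

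The canonical form was not the main product. The form 3' DEL 1, of 22 nt, held 76.9% of the 66803 reads of the 9 sequences and ranked 82 by reads in the list, while the canonical form of 23 nt held 10.5% and ranked 216. Within a library 3' DEL 1 had 7.35 ± 1.61 times the reads of the canonical form (SD, n = 30, range 4.61 to 10.96), above 1 in every library. Next came 5' DEL 1 and 3' DEL 1 with 4.40% of the reads, 3' ADD 1 with 2.79%, 3' DEL 2 with 1.78% and 5' ADD 1 and 3' DEL 1 with 1.73%. The remaining forms were 5' DEL 1 with 1.06%, 5' DEL 1 and 3' ADD 1 with 0.599% and 3' ADD 2 with 0.238%, the last ranking 872, the lowest but 1. These shares rest on reads without molecular identifiers and are not counts of molecules.

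Some libraries stood apart. PD20 replicate 1 held 636000 normalized reads of the smooth muscle and stroma list (miR-143 and miR-145, led by miR-143-3p), where the other animals of PD20 held 76379 to 138140, and 40186 of the muscle list, where they held 1416 to 8099. It also had the lowest scaling factor of all libraries (0.644), which raises its normalized reads. Before this scaling miR-320 made up 0.0599% of its annotated reads, within the 0.0416% to 0.0744% of the other animals of PD20. On PD12 that share was 0.0606% or more, so before scaling PD20 replicate 4, and not replicate 1, lay inside PD12. PD20 replicate 3 and CD16 replicate 3 had almost no added C at the 3' end of their miRNAs, described with the 3' tails. Each comparison was therefore also made without each library in turn. The markers of epithelium, 8 of 8 roots found with 51 sequences and led by miR-200c, were present in every library, with 5490 to 20842 normalized reads. The embryo and trophoblast list (mir-302, mir-367, mir-371, mir-372 and mir-373) was matched by name only, and 0 of 5 roots were found in this way. One of the sequences named by an Ensembl gene is, however, identical to the miR-302 sequence that the study used for its RT-PCR assay. It had 7, 4, 11, 117, 48 and 121 reads in the animals of PD20, 2 reads in CD20 replicate 1, 1 read in CD20 replicate 5 and 0 in every other library. So all 6 animals of PD20 held reads of this embryo marker, most of them in replicates 4, 5 and 6. Its part in the PD20 values of miR-320 was not tested.

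Normalized reads are given in CPM, counts per 1000000 reads of the annotated sequences after TMM scaling in edgeR. In bulk tissue fewer cells of a type and less RNA per cell cannot be told apart. Summed over the 9 forms, miR-320 had 874 ± 344 CPM (SD, n = 30). Group means ran from 1073 ± 484 on CD16 through 998 ± 243 on PD12, 947 ± 311 on CD20, 943 ± 420 on CD12 and 777 ± 266 on PD16 to 579 ± 182 on PD20. Each group overlapped its neighbour in this order. The spread within a group was large, with 322 to 1602 CPM on CD16.

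The dominant form, 3' DEL 1, carried this pattern. On PD12 it had 717, 1064, 587, 729 and 724 CPM, and on PD20 728, 369, 419, 447, 374 and 289 CPM. On this scale all animals of PD20 except replicate 1, the library with the lowest scaling factor, lay below every animal of PD12. On CD20 it had 531, 805, 1090, 562 and 566 CPM, again above the same 5 animals of PD20. The log2 fold change (log2FC) of PD20 vs PD12 was -0.77 (SE 0.310), that of PD20 vs CD20 -0.67 (SE 0.343) and that of PD20 vs PD16 -0.52 (SE 0.310). By the edgeR F-test (quasi-likelihood), adjusted p-values were 0.296, 0.204 and 0.433. The first belongs to the joint test of PD16 and PD20 against PD12, as do the other adjusted p-values given beside PD20 vs PD12, unless a single contrast is named (on CD20 vs CD12 likewise within the cycle). The single contrast of PD20 with PD12 gave a p of 0.0219 in edgeR and an adjusted p of 0.169, so none of these differences exceeded the spread between animals after adjustment over all annotated sequences. With 1 library left out the log2FC lay between -0.99 and -0.66 (PD20 vs PD12), between -0.86 and -0.46 (PD20 vs CD20) and between -0.74 and -0.27 (PD20 vs PD16), and it did not pass in any of these fits. The largest falls came without PD20 replicate 1, the smallest without PD12 replicate 2, CD20 replicate 3 and PD16 replicate 1.

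The canonical form had 105, 143, 73.4, 104 and 102 CPM on PD12 and 100, 58.6, 59.8, 65.8, 63.3 and 62.7 CPM on PD20, where PD20 replicate 1 was again the only animal inside the range of PD12. Its level on PD16 was 69.2 ± 26.5 CPM (n = 5), close to the 68.4 ± 15.8 CPM on PD20 (n = 6). The log2FC was -0.59 (SE 0.299) for PD20 vs PD12, -0.06 (95% interval -0.69 to 0.57) for PD20 vs PD16 and -0.74 (SE 0.317) for PD20 vs CD20, with edgeR adjusted p-values of 0.373, 0.948 and 0.139. The 3 reference miRNAs of the study (let-7d-3p, miR-148a and miR-199b) were also summed as the library size. In such a sum the most abundant weighs most, and the main sequence of mir-148a had 2946497 reads against 156840 for that of mir-199b. With this setting the PD20 vs PD16 value turned to 0.04, while the median of all sequences went from -0.06 to 0.17. The same setting moved the PD20 vs CD20 value to -1.93 and that of 3' DEL 1 to -1.79 (edgeR adjusted p 0.111 and 0.117), and the median of all sequences by -1.07.

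**Figure D1:**
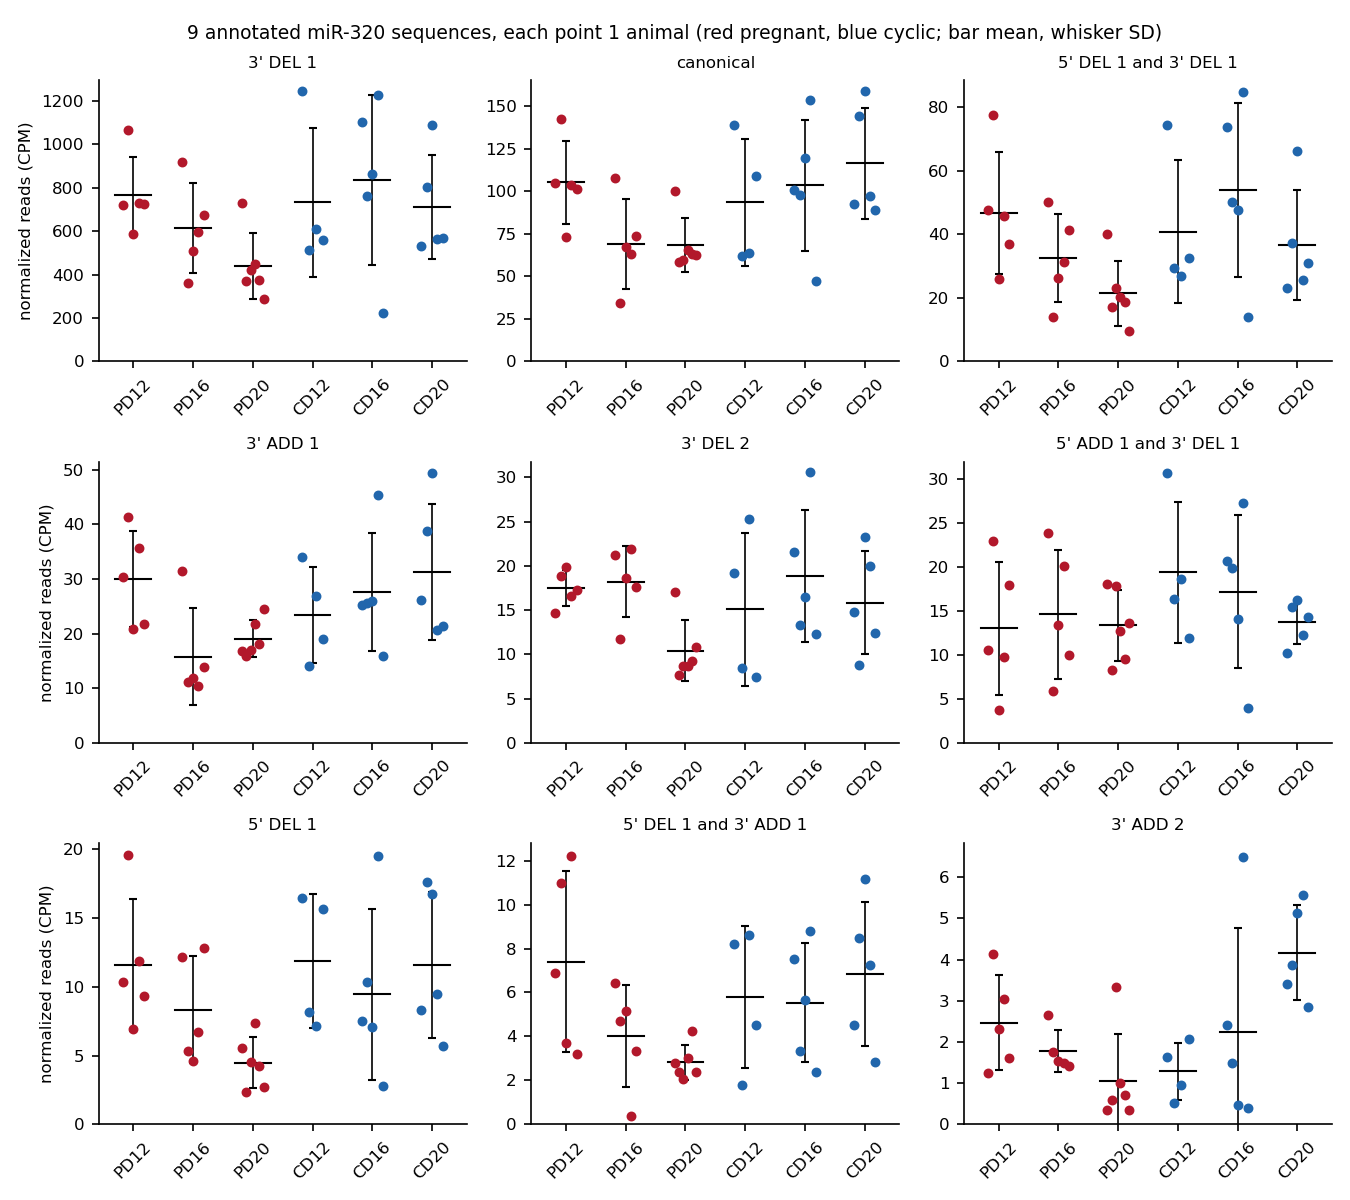
Normalized reads in CPM (vertical axis, from 0, a scale for each panel) of the 9 miR-320 sequences in the 6 groups, 1 panel per form, 1 point per animal, red for pregnant and blue for cyclic animals, with mean and SD. In the panels of 3' DEL 1, the canonical form, 5' DEL 1 and 3' DEL 1, and 3' DEL 2 the PD20 points lie low except for replicate 1. The form with an added 5' base averages 13.4 CPM on PD20 and 13.03 on PD12, and the forms were not tested against each other.

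The 3 forms with a lost 5' base, which share the shifted seed AAGCTGG, each had their lowest group mean on PD20. So did 3' DEL 1, the canonical form, 3' DEL 2 and 3' ADD 2, which keep the canonical seed. Of the forms with a lost base, 5' DEL 1 had 10.3, 19.6, 6.93, 11.9 and 9.30 CPM on PD12, 5.58, 2.37, 4.57, 7.38, 4.27 and 2.72 CPM on PD20, and 8.33, 17.6, 16.8, 9.47 and 5.71 CPM on CD20. In both comparisons 5 of 6 animals of PD20 lay below every animal of the other group. Its log2FC was -1.33 (SE 0.404) vs PD12 and -1.33 (SE 0.431) vs CD20, and the edgeR adjusted p-values of 0.152 and 0.0665 did not pass 0.05. The latter passed without PD20 replicate 4 (log2FC -1.52, edgeR adjusted p 0.0371) or CD20 replicate 5 (-1.50, 0.0489). These levels come from 4 to 57 reads per library.

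The form 5' DEL 1 and 3' DEL 1 averaged 46.7 ± 19.3 CPM on PD12, 21.5 ± 10.2 on PD20 and 36.6 ± 17.4 on CD20, with a log2FC of -1.08 (SE 0.390) vs PD12 and -0.73 (SE 0.410) vs CD20. The form 5' DEL 1 and 3' ADD 1 averaged 7.40 ± 4.11, 2.82 ± 0.785 and 6.85 ± 3.27 CPM in the same groups, with log2FC of -1.37 (SE 0.510) and -1.24 (SE 0.420). The edgeR adjusted p-values of these forms lay between 0.0761 and 0.2496. That of 5' DEL 1 and 3' ADD 1 on PD20 vs CD20 passed without CD20 replicate 5 (log2FC -1.44, edgeR adjusted p 0.0486). The study listed sequences by a minimum of 10 reads in most animals of a group. This form reached that on PD12, CD12 and CD20, but not on PD20, with 4 to 12 reads per library. It may thus have been listed through those groups, and its contrasts with PD12 and CD20 cannot be read apart from that choice.

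The form with an added G at the 5' end had no lower mean on PD20 than on PD12. It had 10.6, 23.02, 3.70, 9.83 and 17.95 CPM on PD12 and 18.1, 8.28, 17.9, 12.8, 9.60 and 13.6 CPM on PD20, and the groups overlapped fully. The log2FC was 0.08 (95% interval -0.81 to 0.96) for PD20 vs PD12 and 0.00 for PD20 vs CD20, an estimate whose interval reached from -0.75 to 0.74, and the sign of both turned under other settings. The interval vs PD12 also holds the -0.77 of 3' DEL 1, and the forms were not tested against each other.

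Of the forms changed at the 3' end only, 3' DEL 2 averaged 17.5 ± 2.01 CPM on PD12, 18.2 ± 4.03 on PD16 and 10.4 ± 3.45 on PD20. All animals of PD20 except replicate 1 were below every animal of PD12 and of PD16 (log2FC -0.72, SE 0.293, and -0.84, SE 0.295; edgeR adjusted p 0.210 and 0.238). The form 3' ADD 1 averaged 30.0 ± 8.80 CPM on PD12, 15.8 ± 8.88 on PD16 and 19.03 ± 3.38 on PD20. Its log2FC was -0.84 (SE 0.353) for PD16 vs PD12 and -0.64 (SE 0.333) for PD20 vs PD12 (edgeR adjusted p of the joint test 0.287). For PD20 vs CD20 it was -0.70 (SE 0.335, edgeR adjusted p 0.178). On PD16 its mean was raised by replicate 1 with 31.5 CPM, against 10.4 to 13.8 CPM in the other animals.

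The rarest form, 3' ADD 2, gave the largest log2FC and the thinnest data. As said, the study annotated sequences with at least 10 reads in most animals of at least 1 group. This form came nearest to that on CD20, with 9, 11, 11, 10 and 6 reads. It may thus have been listed through its high CD20 level, and its contrasts with CD20 cannot be read apart from that choice. It had 0.349, 0.592, 3.32, 1.01, 0.711 and 0.341 CPM on PD20, from 1 to 8 reads per library, and 3.41, 3.88, 5.12, 5.57 and 2.86 CPM on CD20, from 6 to 11 reads. Only PD20 replicate 3 lay inside the range of CD20. The log2FC was -1.93 (SE 0.554, edgeR adjusted p 0.0630). Without PD20 replicate 3 it was -2.67 (edgeR adjusted p 0.0114), and it also passed without PD20 replicate 4 (adjusted p 0.0480) or CD20 replicate 5 (0.0487). Within the cycle this form averaged 1.29 ± 0.692 CPM on CD12 and 4.17 ± 1.15 on CD20 without overlap, with a log2FC of 1.69 (SE 0.704) and an edgeR adjusted p of 0.254. The limit given above for contrasts with CD20 holds here too.

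Over all members, 0 of 9 were called in any of the 9 comparisons by the quasi-likelihood F-test, where a call needed an adjusted p below 0.05 together with a log2FC above 1 or below -1. Among all annotated sequences this test called 0.229% for PD16 against PD12, 0.802% for PD20 against PD12, 0.573% for PD20 against PD16, 0.115% for CD16 against CD12, and 0.458% for CD20 against either earlier day. Between P and C it called 0% on D12, 0% on D16 and 1.49% on D20. At an unadjusted p under 0.05 there were 4 of 9 members in the joint test of PD16 and PD20 against PD12 (all sequences 18.7%), 2 on PD20 vs PD16 (14.2%), 4 on PD20 vs CD20 (28.5%) and 0 in the other comparisons. In the single contrast of PD20 with PD12 it was 6 of 9 (all sequences 20.6%), with 0 called after adjustment (2.86%) and single-contrast adjusted p-values from 0.0794 to 0.952. The likelihood ratio test of edgeR and DESeq2 each called 3 of 9 members on PD20 vs CD20 (14.2% of all sequences by the former, and 131 sequences by DESeq2), namely 5' DEL 1, 5' DEL 1 and 3' ADD 1, and 3' ADD 2, with all log2FC between -1.24 and -1.98. In the other 8 comparisons they called 0 members, and over all sequences 1 to 56 by the likelihood ratio test and 0 to 75 by DESeq2. Groups were fully separate in level for 0 of 9 members on PD20 vs PD12 (3.32% of all sequences), 1 of 9 on CD20 vs CD12 (4.47%) and 0 of 9 on PD20 vs CD20 (4.81%). The 1 separate member was 3' ADD 2, also among the 3 called on PD20 vs CD20. As said, it may have been listed through its CD20 level, and 5' DEL 1 and 3' ADD 1 through its level on PD12, CD12 or CD20.

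By sign, 8 of 9 members had a log2FC below 0 on PD20 vs PD12, with a median of -0.77 against -0.01 over all sequences, and 9 of 9 on PD20 vs CD20, with a median of -0.73 against -0.03. Over all sequences 48.6% to 54.2% were above 0 in the comparisons of this paragraph. The 9 members are forms of 1 miRNA counted in the same libraries, so their signs are not independent. With the 3 reference miRNAs as the library size the PD20 vs CD20 median was -1.91, against -1.10 over all sequences, and 9 of 9 stayed below 0. These comparisons share the PD20 animals. On PD16 vs CD16 9 of 9 were below 0 (median -0.49, all sequences 0.03), and 8 of 9 when all deposited reads were the library size. Within the cycle 7 of 9 were above 0 on CD16 vs CD12 (median 0.26, all sequences 0.03; 5 of 9 with the 3 reference miRNAs). The members split on CD20, with 5 of 9 above 0 for CD20 against either earlier day. This split turned with the scaling, to 9 of 9 above 0 with the 3 reference miRNAs, which also moved the median of all sequences to 1.28 (vs CD12) and 1.18 (vs CD16). On PD12 vs CD12 8 of 9 were above 0 (median 0.22), and 5 of 9 with the 3 reference miRNAs.

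Summed to 1 feature among 190 miRNA roots, miR-320 had a log2FC of -0.70 (95% interval -1.30 to -0.11, edgeR adjusted p of the joint test 0.252) on PD20 vs PD12 and -0.48 (-1.09 to 0.13, adjusted p 0.265) on PD20 vs CD20, where 3.68% and 8.42% of the roots were called. On CD20 vs CD12 the summed value was -0.14 (-1.03 to 0.74). Whether the difference between P and C changed with the day was tested as an interaction over the 30 libraries (edgeR F-test), and 0 of 9 members passed, with 0.115% of all sequences for D20 against D12, 0% for D16 against D12 and 2.41% for D20 against D16. At an unadjusted p under 0.05 there were 4 of 9 for D20 against D12 (16.4% of all), 1 for D16 against D12 (8.13%) and 0 for D20 against D16 (19.1%). The largest was that of 3' ADD 2 for D20 against D12 (log2 -2.91, SE 0.886, edgeR adjusted p 0.109). It includes the CD20 level through which this form may have been listed.

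**Figure D2:**
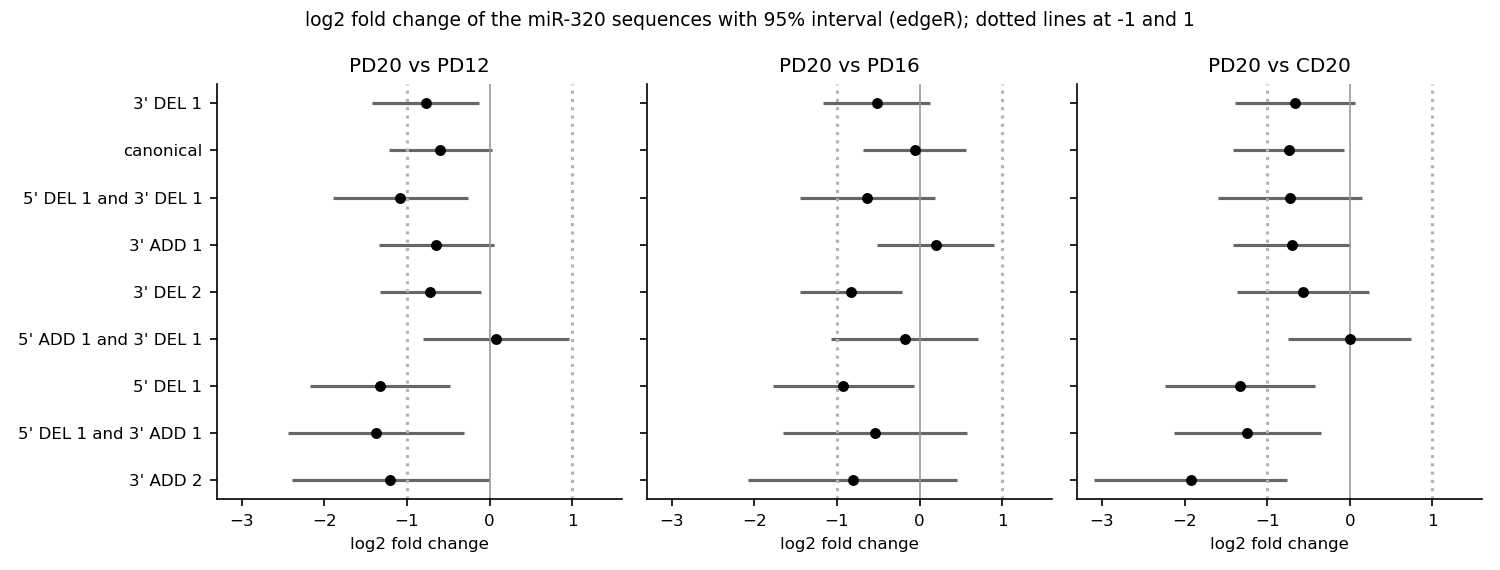
Log2FC (horizontal axis) of the 9 miR-320 sequences, 1 row per form, with 95% intervals from edgeR for PD20 vs PD12, PD20 vs PD16 and PD20 vs CD20, and dotted lines at the size needed for a call. The points of the forms with a lost 5' base lie at -1.08 to -1.37 vs PD12, and the form with an added 5' base lies at 0.08. The form 3' ADD 2, which keeps the canonical 5' end, lies at -1.20.

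Reads of miR-320 outside the annotated list were sought in the deposited tables. The 9 members share a stretch of 20 nt. It was found in 505 distinct sequences with 119522 reads, of which the 9 members held 55.9%. The sequences below are shown because they are the most abundant outside the list, and the capitals mark the bases added at the 3' end.

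T after 3' DEL 1: aaaagctgggttgagagggcgaT
TT after 3' DEL 1: aaaagctgggttgagagggcgaTT
T after canonical: aaaagctgggttgagagggcgaaT
C after 3' DEL 1: aaaagctgggttgagagggcgaC

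The form with 1 T after 3' DEL 1 had 19196 reads, more than the canonical form with 7010 and second only to 3' DEL 1 among the 505 sequences. The form with TT had 8872 reads, that with T after the canonical end 4757 and that with C 2817. In each of these the added base stands where a longer annotated form has A. In all, 33.7% of the 119522 reads ended in a T tail, of which 69.5% had 1 T and 27.1% had 2. C tails made up 3.03%, G tails 0.598% and other endings 6.53%. As DNA is read, T stands for U in the RNA.

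The T tail did not differ in share between groups after adjustment. It made up 33.1% ± 2.74 of miR-320 reads on PD12, 35.2% ± 2.53 on PD16, 35.0% ± 2.54 on PD20, 33.3% ± 3.23 on CD12, 34.8% ± 3.18 on CD16 and 31.2% ± 3.34 on CD20 (SD). In each of 9 comparisons the groups overlapped, and the smallest exact two-sided permutation p was 0.0584, on PD20 vs CD20 (adjusted over 9 tests 0.526). Over all libraries the share lay between 27.1% and 39.1%. Reads that had lost the first base carried a T tail in 39.2% ± 5.04 and reads with the canonical 5' end in 33.6% ± 3.21 (SD, n = 30).

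Against other miRNAs this was a high share. For the most abundant annotated sequence of each root, the reads with 1 more T were set against both, where the longer sequence is not itself annotated and each library held at least 100 reads. Of 49 such roots miR-320 had rank 5 with a mean of 27.4% (range 22.1% to 33.8%), where the median root had 3.02%. The roots above it were mir-152 with 57.0%, mir-99b with 53.6%, mir-140 with 38.3% and mir-221 with 37.8%. For other roots an added T can also be the next base of the genome, since no genome was used, so these shares are upper limits of untemplated T.

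**Figure D3:**
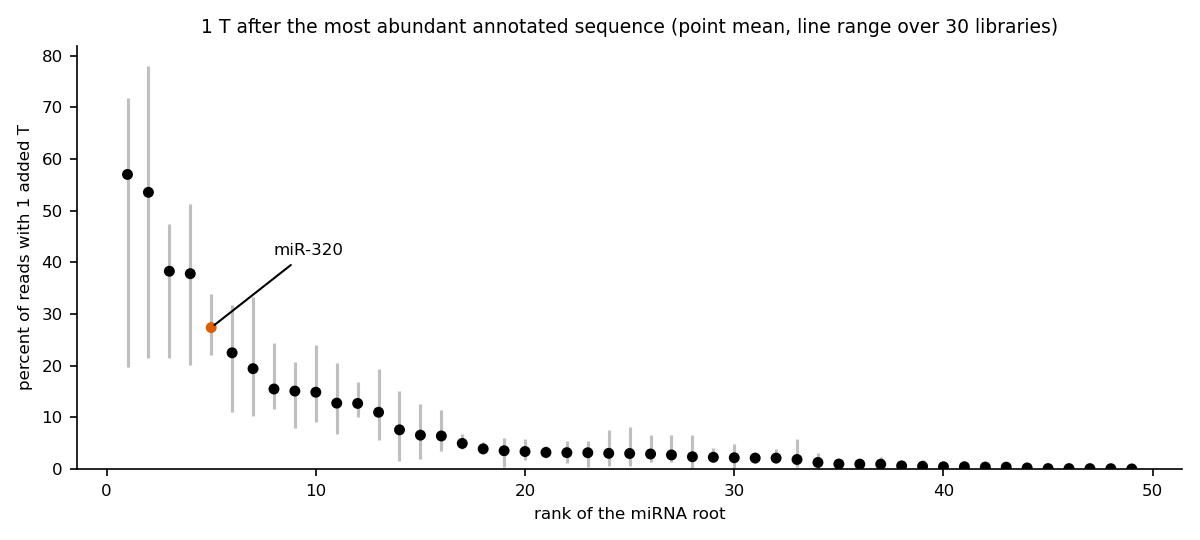
Percent of reads with 1 T added to the most abundant annotated sequence (vertical axis, from 0) for 49 miRNA roots by rank (horizontal axis), with the mean as a point and the range over 30 libraries as a line. miR-320, in orange, has 27.4% with a range of 22.1% to 33.8%, while the median root has 3.02%.

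C tails were nearly missing from a pair of libraries. In PD20 replicate 3 they made up 0.0874% of miR-320 reads and in CD16 replicate 3 0.219%, where the other 28 libraries had 1.90% to 4.69%. The same held for other miRNAs: 1 added C made up 0.414% and 0.399% of mir-143 reads in these libraries and 9.51% to 21.7% in the others. Of all deposited reads 22.5% and 12.9% ended in C in these libraries, and 20.9% to 42.9% in the others, so the share in CD16 replicate 3 was the lowest of the 30. The cause was not tested, nor was its part in the 3' end shares and form levels of these libraries.

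The 5' end sets the seed. Among the 9 annotated sequences, reads with a shifted 5' end made up 7.64% ± 1.47 on PD12, 7.56% ± 0.535 on PD16, 7.26% ± 0.781 on PD20, 8.27% ± 0.344 on CD12, 7.86% ± 0.851 on CD16 and 7.17% ± 0.438 on CD20. PD20 and PD12 overlapped, with a difference of -0.379 percentage points (exact two-sided permutation p 0.582, adjusted over 18 tests 0.699). On CD20 the share was below that of every animal of CD12, by 1.10 points (difference -1.10, exact permutation p 0.0159, adjusted 0.0952). None of the 9 comparisons passed after adjustment.

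The loss and the gain of a base were also counted apart. In the annotated sequences a lost 5' base made up 6.399% on PD12 and 4.89% on PD20, and an added one 1.24% on PD12 and 2.37% on PD20. The exact permutation p-values were 0.0476 and 0.0130, and 0.266 and 0.0974 after adjustment over the 9 comparisons of each measure. The groups overlapped for both measures, and the level of the form with an added base, as opposed to its share, was 13.03 CPM on PD12 and 13.4 CPM on PD20.

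Counted over all 505 sequences, T tails included, the share with a shifted 5' end was lower on PD20. It was 7.28%, 7.23%, 8.35%, 8.17%, 8.34% and 7.16% in the animals of PD20, 9.69%, 11.1%, 9.70%, 11.1% and 9.58% on PD12, and 9.44%, 8.74%, 10.4%, 9.62% and 9.43% on PD16. No animal of PD20 overlapped PD12 or PD16. The means differed by -2.48 points vs PD12 and by -1.78 points vs PD16, each with an exact two-sided permutation p of 0.00216, the smallest these groups allow, and an adjusted p of 0.0195 over 18 tests. Leaving out any 1 library gave differences of -2.64 to -2.26 and of -1.97 to -1.55 points, each with an adjusted p under 0.05.

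Within the cycle the share over all 505 sequences was 10.5% ± 1.32 on CD12 (n = 4), 9.34% ± 0.785 on CD16 and 8.48% ± 0.441 on CD20 (n = 5), with a difference of -2.04 points for CD20 vs CD12 (exact permutation p 0.00794, adjusted 0.0476). The groups only just failed to overlap, with 8.817% in CD12 replicate 3 and 8.813% in CD20 replicate 3, less than 1 read apart. Without any 1 of these 9 libraries the difference lay between -2.61 and -1.53 points, and too few animals then remained for the exact test to pass after adjustment. Between P and C the difference was -0.726 points on D20 (exact permutation p 0.0563, adjusted 0.203), -0.289 on D12 and 0.189 on D16, and the groups overlapped on each day. Whether P and C drew apart between days was tested by permuting the status within days. Over all 505 sequences the largest change of this share was -0.914 points, from D16 to D20 (exact permutation p 0.108, adjusted over 6 tests 0.235), and over the annotated sequences the smallest exact p was 0.444.

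The lower share on PD20 came from reads that had lost the first base. They made up 9.14% ± 0.856 of all 505 sequences on PD12, 8.04% ± 0.640 on PD16 and 6.06% ± 0.695 on PD20, while reads with an added base made up 1.04% ± 0.292, 1.43% ± 0.339 and 1.62% ± 0.405. The share of reads without the first base was then counted in the same way for other canonical pig miRNAs, from all deposited reads that begin with the first 17 bases of the canonical sequence or of its form without the first base. Of 65 miRNAs with at least 100 such reads in each library, miR-320 had rank 6 with a mean of 8.01%, after miR-140-3p with 62.8%, miR-183, miR-10a-5p, miR-10b and miR-378 with 10.1%. PD20 and PD12 did not overlap for 3.08% of the 65, namely miR-320 (difference -3.11 points) and miR-30a-5p (-0.273). PD20 and PD16 did not overlap for 3.08%, the same miRNAs, with -2.01 points for miR-320. Most of the 65 had shares far below that of miR-320, so the share was also set as a ratio of group means. For PD20 against PD12 the ratio was 0.667 for miR-320 and 0.689 for miR-30a-5p, with a median of 0.933 over the 65, and 9 miRNAs had a lower ratio than miR-320. For PD20 against PD16 it was 0.756 for miR-320 and 0.791 for miR-30a-5p (median 0.958), and 14 miRNAs had a lower ratio than miR-320. The 8 miRNAs with the highest share, miR-320 among them, were all lower on PD20 than on PD12, by 2.24 points or more in miR-140-3p (difference -2.26), miR-183 (-2.94), miR-10a-5p (-2.70) and miR-378 (-2.24), though with overlap with PD12 in all but miR-320. Against PD16 7 of these 8 were lower, with ratios of 0.743 for miR-378 and 0.958 for miR-140-3p, and against CD20 8 of 8 were lower, with a ratio of 0.849 for miR-320 (median 0.911). There 3.08% of the 65 did not overlap, namely miR-10a-5p (difference -3.75 points) and miR-151-3p (-0.229), while miR-320 did overlap. On CD20 vs CD12 3.08% of the 65 did not overlap, and miR-320 was not among them by this count.

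**Figure D4:**
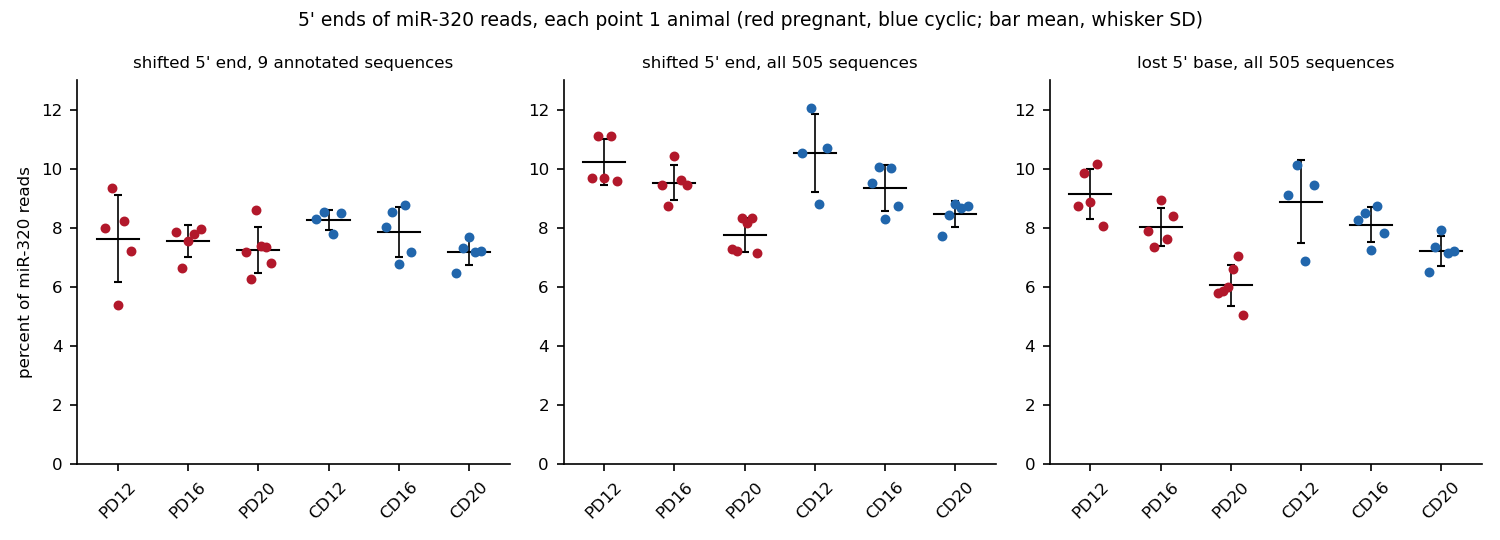
Percent of miR-320 reads (vertical axis, from 0) with a shifted 5' end in the 9 annotated sequences and in all 505 sequences, and with a lost 5' base in all 505, by group, 1 point per animal with mean and SD. Over all sequences the PD20 points (7.16% to 8.35%) lie below those of PD12 (9.58% to 11.1%), which the annotated sequences alone do not show.

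The 3' end of the annotated sequences, as the mean offset from the canonical end in nt, was -0.820 ± 0.0226 on PD12, -0.867 ± 0.0219 on PD16, -0.802 ± 0.0402 on PD20, -0.834 ± 0.0386 on CD12, -0.832 ± 0.0427 on CD16 and -0.788 ± 0.0201 on CD20. PD16 lay below every animal of PD12, by a difference of -0.0474 nt (exact two-sided permutation p 0.00794, adjusted 0.0952). The groups only just failed to overlap, with -0.8444 nt as the highest value of PD16 and -0.8434 nt as the lowest of PD12. This offset was not measured for other miRNAs. PD20 was above PD16 by 0.0652 nt with overlap (exact permutation p 0.0108, adjusted 0.0952). No comparison passed after adjustment, and over all 505 sequences, where T tails lengthen the reads, the PD16 vs PD12 difference was -0.0014 nt.

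The forms of miR-320 rose and fell together across animals to different degrees. On the log2(CPM + 1) scale, Pearson r with 3' DEL 1 over the 30 libraries was 0.962 for 5' DEL 1 and 3' DEL 1, 0.854 for the canonical form and 0.817 for 5' DEL 1, and fell to 0.515 for 3' ADD 2, the form with the fewest reads. All points share their library and its scaling. Outside miR-320, among 542 sequences of at least 10 CPM, the highest r were those of miR-450c-5p (0.685), a shorter sequence that carries both names mir-450a and mir-450c (0.588), mir-100 (0.566), mir-450b (0.556) and mir-125b (0.547). The first pair can stem from the same hairpin.

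Among other miRNAs known to bypass a standard step, 2 of the 9 roots looked for were in the list. mir-451, whose hairpin is cut by AGO2 instead of DICER1 and which marks red blood cells, had 9 sequences, and mir-664, which comes from a small nucleolar RNA, had 5. The quasi-likelihood F-test called 0 of 9 and 0 of 5 in each of the 9 comparisons. At an unadjusted p under 0.05 there were 3 of 9 for mir-451 on PD20 vs CD20 (28.5% of all sequences) and at most 2 elsewhere, and 1 of 5 for mir-664 in each comparison between days of pregnancy (14.2% to 18.7%). The most abundant mir-451 sequence averaged 568 ± 191 CPM on PD12, 1334 ± 754 on PD20 and 538 ± 338 on CD20, so that its means lay opposite to those of miR-320 (log2FC 1.26, SE 0.539, vs PD12, edgeR adjusted p 0.321, and 1.34, SE 0.513, vs CD20, adjusted p 0.106). The medians over the 9 mir-451 sequences were -0.12 and -0.21. miR-664-3p averaged 18.8 ± 8.16, 16.4 ± 7.86 and 14.3 ± 6.02 CPM in these groups (log2FC -0.16, SE 0.416, and 0.24, SE 0.430; edgeR adjusted p 0.906 and 0.735).

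Markers of other cells are given for the same groups, without a test. The epithelial list summed to 13694 ± 3082 CPM on PD12, 12773 ± 3088 on PD20 and 8836 ± 2354 on CD20. The red blood cell list (3 of 3 roots, 16 sequences, led by mir-451) summed to 1199 ± 426, 2190 ± 1177 and 1076 ± 618 CPM, and the leukocyte list (3 of 4 roots, 9 sequences, led by mir-142, miR-223 not found) to 55.8 ± 9.99, 110 ± 32.8 and 122 ± 51.7 CPM. The endothelial list (miR-126, 17 sequences) summed to 3226 ± 490, 3913 ± 606 and 4604 ± 293 CPM, and the muscle list (3 of 5 roots, 8 sequences, led by mir-1, without mir-133a and mir-133b) to 3097 ± 2919, 9980 ± 14977 and 3082 ± 3211 CPM. The smooth muscle and stroma list (2 of 2 roots, 31 sequences) summed to 105060 ± 21822, 192340 ± 218770 and 99625 ± 19533 CPM. The PD20 means of both muscle lists rest on replicate 1. Their part in the level of miR-320 was not tested.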

How the data were processed

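The authors deposited, for each of 30 endometrial libraries, raw counts of reads per distinct sequence, made by joining 2 sequencing runs and removing low-quality reads, adapters and reads under 17 nt. The counts are neither aligned nor normalized. The authors annotated part of the sequences against Sscrofa10.2, miRBase and NCBI, and the names were joined here by exact match. No row lacked a sequence. The members, lists and tests were chosen with earlier results of these data known.

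Counts of the annotated sequences were scaled by TMM and tested in edgeR 4.0.16 (R 4.3.3) by its quasi-likelihood F-test. Within P and within C, D16 and D20 entered 1 joint test against D12, other contrasts were single, with Benjamini-Hochberg adjustment. SE is the absolute log2FC over the square root of F. DESeq2 1.42.0, the likelihood ratio test, other scalings, filters and fits, and each library left out were alternatives.

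End shares were compared between groups by exact permutation tests (two-sided) over 9 comparisons and 2 measures, 18 tests adjusted together. The tests of single 5' changes and of T tails, the status-by-day permutation, the look-up of miR-302 and the counts over other miRNAs were added after the data were seen. Every miR-320 sequence was named. The likeness rule took the highest Pearson r, 1 sequence per root. Libraries ran in 3 multiplex pools, and which pool held which library was not used here. Replicates are separate animals.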

Additional observations from a re-analysis of the deposited data

Results flagged for a closer look

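A single animal lay far from the others of its group in 13 cases out of 90 groups of values tested by the gap to its nearest neighbour over the range, a rule that flags about 1 group in 20 by chance. PD20 replicate 1 was high for 3' DEL 1 (728 CPM, others 289 to 447), the canonical form (100.1 CPM, others 58.6 to 65.8), 3' DEL 2 (17.1 CPM, others 7.69 to 10.9) and the sum of the 9 sequences (929 CPM, others 416 to 587). CD12 replicate 1 was high for 3' DEL 1 (1244 CPM, others 515 to 609), 5' DEL 1 and 3' DEL 1 (74.5 CPM, others 26.8 to 32.6) and the sum (1568 CPM, others 655 to 787). PD16 replicate 1 was high for 3' ADD 1 (31.5 CPM, others 10.4 to 13.8) and 3' ADD 2 (2.65 CPM, others 1.43 to 1.77). PD20 replicate 3 was high for 3' ADD 2 (3.32 CPM, others 0.341 to 1.01). These values share libraries and are not independent. Those of PD20 replicate 1 also carry its low scaling factor (0.644), and its share of miR-320 before scaling lay within that of the other PD20 animals.

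Within CD12, replicate 4 had the mean 3' offset nearest to the canonical end (-0.776 nt, the others of CD12 -0.856 to -0.849). PD20 replicate 3 (0.0874%) and CD16 replicate 3 (0.219%) had few C tails on miR-320, where the others of their groups had 3.45% to 4.01% and 3.45% to 4.19%.

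Reads outside the annotated list held a signal of their own: 33.7% of miR-320 reads ended in T after the annotated sequence.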

How the results depend on the processing

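No alternative called a miR-320 sequence outside PD20 vs CD20. There the likelihood ratio test and DESeq2 called 3 (124 and 131 of all sequences) and 1 fit of all libraries called 2 (98 of all). Leaving out 1 library called 0 to 3, with 1 without PD20 replicate 3 (6 of all), 2 without PD20 replicate 4 (116) and 3 without CD20 replicate 5 (59), where the whole data set gave 13. Among the forms called, 3' ADD 2 and the form 5' DEL 1 and 3' ADD 1 may have been listed through groups that include CD20. The likelihood ratio test called 1 interaction, that of 3' ADD 2 for D20 against D12 (16 of all), a form that may have been listed through its CD20 level. With the replicate block 0 miR-320 sequences were called in each comparison, where it called 5 of all sequences on PD20 vs CD20 and 0 to 3 in the others. The numbers did not pair the animals (mean correlation of deviations -0.0279 over 70 pairs with the same number, over 0.1 in 17, and 8 of 30 libraries closest to their own number).

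Over all 505 sequences the 5' difference passed the threshold, with -2.48 points (PD20 vs PD12), -1.78 (PD20 vs PD16) and -2.04 (CD20 vs CD12). Without any 1 library the last lay between -2.61 and -1.53, with too few animals left to pass. The same count turned the sign of the 5' difference on PD16 vs CD16 (0.189) and PD20 vs CD20 (-0.726), and of the 3' offset on CD16 vs CD12 (-1.73e-05), CD20 vs CD12 (-0.0455), CD20 vs CD16 (-0.0454), PD12 vs CD12 (-0.00807) and PD20 vs CD20 (0.0928). Leaving out 1 library moved the 5' difference from -0.633 to 0.355 (PD16 vs PD12), -0.937 to 0.0505 (PD20 vs PD12) and -0.180 to 0.289 (PD20 vs CD20), and the 3' offset on CD16 vs CD12 between -0.0150 and 0.0212. The cause was not tested.

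The log2FC of 5' ADD 1 and 3' DEL 1 on PD20 vs PD12 turned to -0.19 with all deposited reads as library size, -0.031 with at least 10 CPM and -0.0936 with all deposited sequences, and for PD20 vs CD20 to 0.010 with at least 10 CPM. Leaving out 1 library gave this form -0.147 to 0.338 (PD20 vs PD12), -0.374 to 0.122 (PD20 vs PD16) and -0.101 to 0.104 (PD20 vs CD20), and the canonical form -0.230 to 0.214 (PD20 vs PD16). The latter turned to 0.043 with 3 reference miRNAs, which moved the median of all sequences by up to 1.20. The rarest forms rest on few reads (from 1 per library), and reads are not independent molecules.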
